A study of Homo sapiens with 12 samples.

Results

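Transcript levels of 10 transcription factors of the B lineage were followed in 12 RNA-seq libraries from 2 human cell lines. The factors are IKZF1, SPI1, TCF3, EBF1, PAX5, POU2AF1, SPIB, IRF8, BCL6 and IRF4. They were taken by gene symbol, and all 10 were found among the 17518 genes of the count table. All 10 passed the low-count filter. EBF1, POU2AF1, IRF4 and IRF8 passed it through their MUTZ-1 libraries alone, so their difference between the lines was a condition of being tested. The groups were MUTZ-1 cells carrying a short hairpin RNA (shRNA) against NUDT21, MUTZ-1 cells carrying a control shRNA, SKM-1 cells with the NUDT21 shRNA and SKM-1 cells with the control shRNA, with 3 libraries each. The column names give the knockdown libraries of both lines the same hairpin name, and no other hairpin against NUDT21 is named. Off-target effects of the hairpin therefore cannot be told apart from effects of less NUDT21. The labels give the controls the genotype WT. They describe both lines as human myelodysplastic syndrome cells from marrow, grown in medium with serum. The series asked what NUDT21, a subunit of the cleavage factor that helps choose where messenger RNA is cut and polyadenylated, does in the progression of this disease. The labels say neither whether each shRNA line was a pool or a clone, nor whether the 3 libraries of a group came from separate cultures, so the tests weigh a difference only against the spread among the 3 libraries of a group, which may be technical.

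B cells are specified by factors that act in sequence. IKZF1 (Ikaros) and SPI1 (PU.1) open the lymphoid and myeloid options of early progenitors, TCF3 (E2A) and EBF1 switch on early B-cell genes, and PAX5 fixes commitment to the lineage while repressing genes of other lineages. POU2AF1, SPIB, IRF8, BCL6 and IRF4 act mainly in later B cells, where BCL6 holds the germinal centre state and IRF4 favours plasma cells. SPI1 and IRF8 are also central to monocyte development.

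NUDT21 itself was checked first. Its level was 135, 136 and 142 CPM (counts scaled to library size and composition) in MUTZ-1 knockdown libraries, against 301, 297 and 301 CPM in MUTZ-1 control. It was 131, 132 and 129 CPM in SKM-1 knockdown, against 322, 336 and 343 CPM in SKM-1 control. All libraries fell on the side their label gives. Totals ran from 15843012 to 18426619 counts per library. Of 9 B-lineage marker genes, 9 averaged at least 1 CPM in both MUTZ-1 groups, where the markers summed to 1821 to 1867 CPM in knockdown and 1969 to 2015 CPM in control. In SKM-1 the same markers summed to 3.65 to 4.65 CPM in knockdown and 6.18 to 9.02 CPM in control. Of 12 monocyte and granulocyte markers, 0 averaged 1 CPM in MUTZ-1 knockdown and 3 did in MUTZ-1 control, with the myeloid enzyme gene MPO at 0 counts in both. In SKM-1, 5 averaged at least 1 CPM in knockdown and 4 in control, but MPO was near absence there too, with 0 counts in knockdown and 1 in control. The MUTZ-1 libraries, labelled as myelodysplastic cells, thus held far more RNA of B-lineage than of myeloid markers.

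Promoter sequences are shown for 4 factors that took different paths in these data: PAX5, which fell in MUTZ-1; IKZF1, which rose in both lines; BCL6, which moved in opposite directions; and EBF1, which passed the test of the knockdown in neither line. RefSeq (GRCh38.p14) gave a window of 250 bases before to 50 bases after a start site for 8 of the 10 factors, and the most upstream listed start was used. Capitals mark matches, on either strand, to binding motifs of the factors themselves.
PAX5, chr9:37034219-37034518, minus strand: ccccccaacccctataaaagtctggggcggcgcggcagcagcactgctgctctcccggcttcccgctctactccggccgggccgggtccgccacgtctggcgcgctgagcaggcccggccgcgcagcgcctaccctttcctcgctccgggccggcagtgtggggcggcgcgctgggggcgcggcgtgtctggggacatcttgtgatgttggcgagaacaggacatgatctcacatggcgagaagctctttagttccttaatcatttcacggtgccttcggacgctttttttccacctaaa
IKZF1, chr7:50304466-50304765, plus strand: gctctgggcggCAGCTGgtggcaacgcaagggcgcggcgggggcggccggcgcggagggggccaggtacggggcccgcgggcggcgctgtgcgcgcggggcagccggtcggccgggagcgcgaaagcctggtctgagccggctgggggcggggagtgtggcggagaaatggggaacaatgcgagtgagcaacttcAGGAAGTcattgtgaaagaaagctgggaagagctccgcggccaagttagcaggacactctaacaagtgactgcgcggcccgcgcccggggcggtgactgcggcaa
BCL6, chr3:187745419-187745718, minus strand: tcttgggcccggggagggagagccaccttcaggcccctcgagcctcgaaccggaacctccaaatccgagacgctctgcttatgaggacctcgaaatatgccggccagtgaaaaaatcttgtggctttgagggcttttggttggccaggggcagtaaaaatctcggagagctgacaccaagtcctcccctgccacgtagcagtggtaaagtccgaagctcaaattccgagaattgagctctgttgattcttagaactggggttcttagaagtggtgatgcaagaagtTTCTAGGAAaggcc
EBF1, chr5:159097907-159098206, minus strand: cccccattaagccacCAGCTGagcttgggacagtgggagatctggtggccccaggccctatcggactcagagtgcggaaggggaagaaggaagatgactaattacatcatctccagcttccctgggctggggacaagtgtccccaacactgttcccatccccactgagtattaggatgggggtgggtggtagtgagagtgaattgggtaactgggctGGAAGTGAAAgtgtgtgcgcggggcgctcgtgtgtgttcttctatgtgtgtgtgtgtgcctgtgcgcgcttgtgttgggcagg
The motifs searched were the ETS site AGGAAGT, the ETS-IRF composite (GGAA and GAAA, 2 bases apart), the octamer ATGCAAAT, the E-boxes CAGCTG and CAGGTG, the EBF1 site (TCCC and GGGA, 2 bases apart), the BCL6 core TTCCTAGAA and the IRF site (GAAA and GAAA, 2 bases apart). The BCL6 window held the BCL6 core on the strand opposite to the gene, where the printed strand reads its reverse complement, 36 bases after the start, a match found in 0.403% of 27305 promoters. The EBF1 window held the composite bound by SPI1 or SPIB with IRF4 or IRF8, 33 bases before the start, against 2.83% of promoters, and the E-box CAGCTG, against 17.7%. The IKZF1 window held the same E-box and the ETS site AGGAAGT, which 8.25% of promoters hold. No motif searched overlapped another here, and the PAX5 window held none of these letters. A match describes the sequence and does not show binding.

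Control MUTZ-1 cells carried far more of every factor than control SKM-1 cells. The test between the control lines called all 10 factors higher in MUTZ-1, where 41.4% of the 13625 genes tested were called higher, 48.8% lower and 90.1% in either direction. The groups of all 10 did not overlap, as was so for 90.0% of all genes. The median log2 fold change of the 10 was 7.54, or 6.44 with IRF4 at its bound, against -0.11 over all genes. The factors fell into 2 ranges of difference. TCF3, SPI1, BCL6 and IKZF1 were well counted in both lines, and the other 6 averaged under 1 CPM in SKM-1 control. In bulk RNA, fewer expressing cells and less RNA per cell cannot be told apart.

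Among the early factors, IKZF1 had 732, 733 and 758 CPM in MUTZ-1 control, against 36.5, 37.3 and 36.6 CPM in SKM-1 control, a log2 fold change of 4.33 ± 0.03 (SE, adjusted p = 2.45e-205). SPI1 had 80.8, 82.9 and 76.0 CPM in MUTZ-1 control, against 9.44, 9.17 and 9.48 CPM in SKM-1 control (log2 fold change 3.09 ± 0.07, adjusted p = 1.91e-104). TCF3 had 954, 946 and 972 CPM in MUTZ-1 control, against 169, 166 and 169 CPM in SKM-1 control, the smallest gap of the 10 at 2.51 ± 0.02 (adjusted p = 1.77e-181). The groups did not overlap for any of these genes, and TCF3, which encodes the E proteins E12 and E47 found in many cell types, was the highest of the 10 in SKM-1 control too. BCL6, the germinal centre repressor, had 529.7, 514 and 524 CPM in MUTZ-1 control, against 32.2, 32.6 and 31.4 CPM in SKM-1 control, a log2 fold change of 4.03 ± 0.03 (adjusted p = 5.36e-192).

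The factors that specify and commit B cells were at trace counts in SKM-1. PAX5 had 604, 596 and 630.1 CPM in MUTZ-1 control, against 0.674, 0.597 and 0.977 CPM in SKM-1 control. That was 31798 counts in the MUTZ-1 control libraries together and 40 in those of SKM-1. EBF1 had 54.0, 52.8 and 55.0 CPM in MUTZ-1 control, against 0.0562, 0.109 and 0.230 CPM in SKM-1 control, which held 7 EBF1 counts in all. As a share of its MUTZ-1 level, SKM-1 control held 0.122% for PAX5 (95% exact interval 0.0873% to 0.166%) and 0.242% for EBF1 (0.0972% to 0.499%). These intervals cover counting error only. Similar shares were found for POU2AF1, the coactivator of the octamer factors, at 0.105%, for IRF8 at 0.0969% and for SPIB, the ETS factor close to SPI1, at 0.264%. The B-cell receptor subunit genes CD79B and CD79A, which are B-lineage markers and no members, stood at 0.107% and 0.355%. Where the trace counts in SKM-1 come from was not tested. IRF4 was the factor nearest to absence in MUTZ-1 too, with 18, 7 and 10 counts in MUTZ-1 control, against 0, 0 and 0 counts in SKM-1 control. Against a floor of 3 counts set for the SKM-1 control group, IRF4 was 12-fold higher in MUTZ-1 control. By the exact interval, SKM-1 control held 0% to 10.8% of the MUTZ-1 level of IRF4, counting error only.

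**Figure D1:**
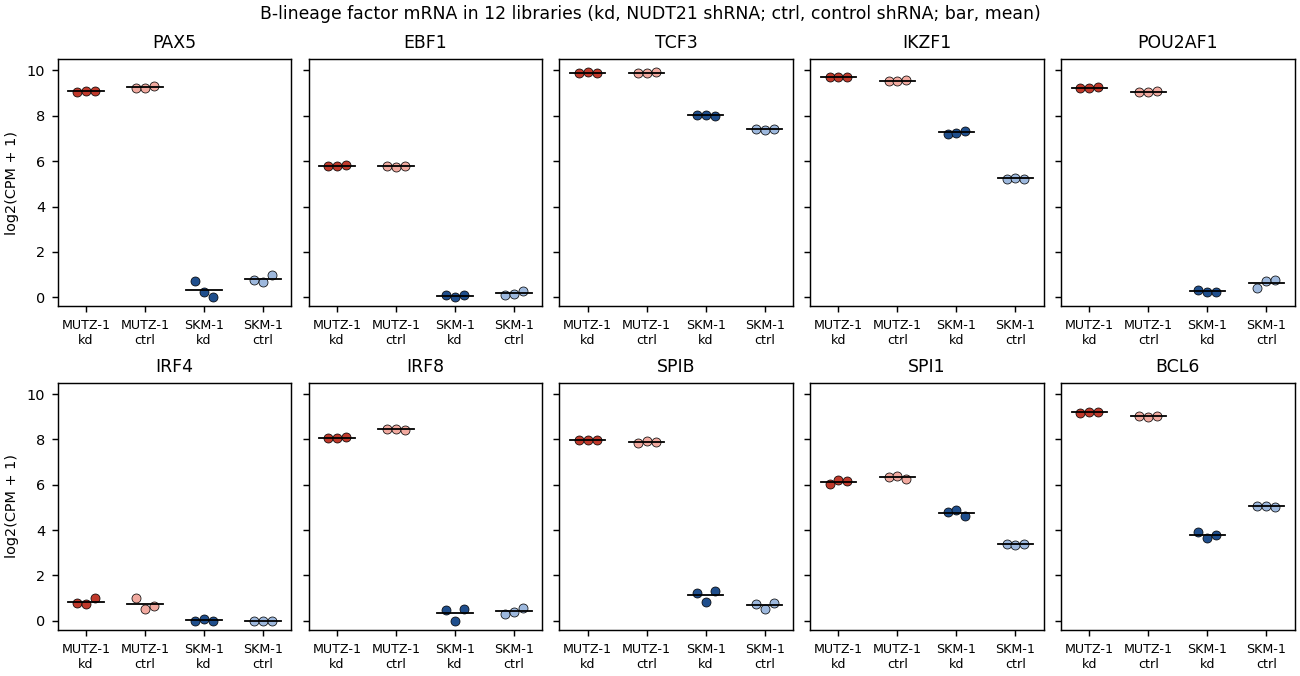
Each panel plots 1 factor as log2(CPM + 1) in 12 libraries, with 3 points for each of the groups MUTZ-1 knockdown, MUTZ-1 control, SKM-1 knockdown and SKM-1 control and a bar at the mean. The MUTZ-1 points lie above the SKM-1 points in all 10 panels, and 6 factors lie near 0 in SKM-1.

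After NUDT21 knockdown in MUTZ-1, 4 factors rose, 3 fell and 3 did not pass the test, and no change reached 2-fold. IKZF1, POU2AF1, BCL6 and SPIB rose. IRF8, SPI1 and PAX5 fell. TCF3, EBF1 and IRF4 were not called. The 7 of 10 called stand beside 49.0% of all genes called in the same comparison, 24.4% higher and 24.6% lower, so a small call in this comparison was common. The median log2 fold change of the factors was 0.07, against 0.00 over all genes. The 3324 higher and 3356 lower calls over all genes became 4056 higher and 2626 lower when libraries were scaled by their totals alone.

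IRF8, an interferon regulatory factor of B cells and monocytes, changed most. It had 269, 267 and 271 CPM in knockdown libraries, against 346, 351 and 343 CPM in control. Knockdown libraries held 77.7% of the control level, and the groups were far apart (log2 fold change -0.36 ± 0.03, adjusted p = 4.15e-27). PAX5 had 523, 549.6 and 541 CPM in knockdown, against 604, 596 and 630.1 CPM in control. All 3 knockdown libraries were lower than all controls, and 88.1% of the control level was left (log2 fold change -0.18 ± 0.03, adjusted p = 1.36e-07). SPI1 had 64.5, 73.5 and 71.1 CPM in knockdown, against 80.8, 82.9 and 76.0 CPM in control. The groups did not overlap, but knockdown replicate 1 was the lowest library and the call depended on it: the log2 fold change was -0.20 ± 0.05 (adjusted p = 2.37e-04) with it and -0.12 (adjusted p = 0.0739) without it.

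The factors that rose did so by about the same step. IKZF1, whose zinc finger protein both activates and silences lymphoid genes, had 841, 827 and 842 CPM in knockdown, against 732, 733 and 758 CPM in control (log2 fold change 0.18 ± 0.02, adjusted p = 8.49e-14). POU2AF1 had 594, 606 and 607 CPM in knockdown, against 536, 525 and 539 CPM in control (0.18 ± 0.02, adjusted p = 3.14e-12). BCL6 had 581, 593 and 590.2 CPM in knockdown, against 529.7, 514 and 524 CPM in control (0.17 ± 0.02, adjusted p = 2.01e-11). In each of these genes every knockdown library was above every control library. SPIB had 253, 253 and 253 CPM in knockdown, against 228, 239 and 233 CPM in control, the smallest called change of the set at 0.12 ± 0.03 (adjusted p = 3.38e-04).

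EBF1, TCF3 and IRF4 did not pass the test. EBF1 had 54.7, 53.8 and 55.3 CPM in knockdown, against 54.0, 52.8 and 55.0 CPM in control, and its log2 fold change of 0.02 had a 95% interval of -0.12 to 0.16. TCF3 had 943, 983 and 951 CPM in knockdown, against 954, 946 and 972 CPM in control, with an interval of -0.04 to 0.05. Both intervals exclude a change as large as that of IRF8. IRF4 had 12, 11 and 17 counts in knockdown, against 18, 7 and 10 counts in control, too few to resolve a change of moderate size (interval -0.71 to 1.24). The 7 called factors were also the 7 whose groups did not overlap, a pattern that 53.6% of all genes showed. With limma on log2(FPKM + 0.1), 2 of the 10 factors passed, IKZF1 and BCL6, both higher.

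**Figure D2:**
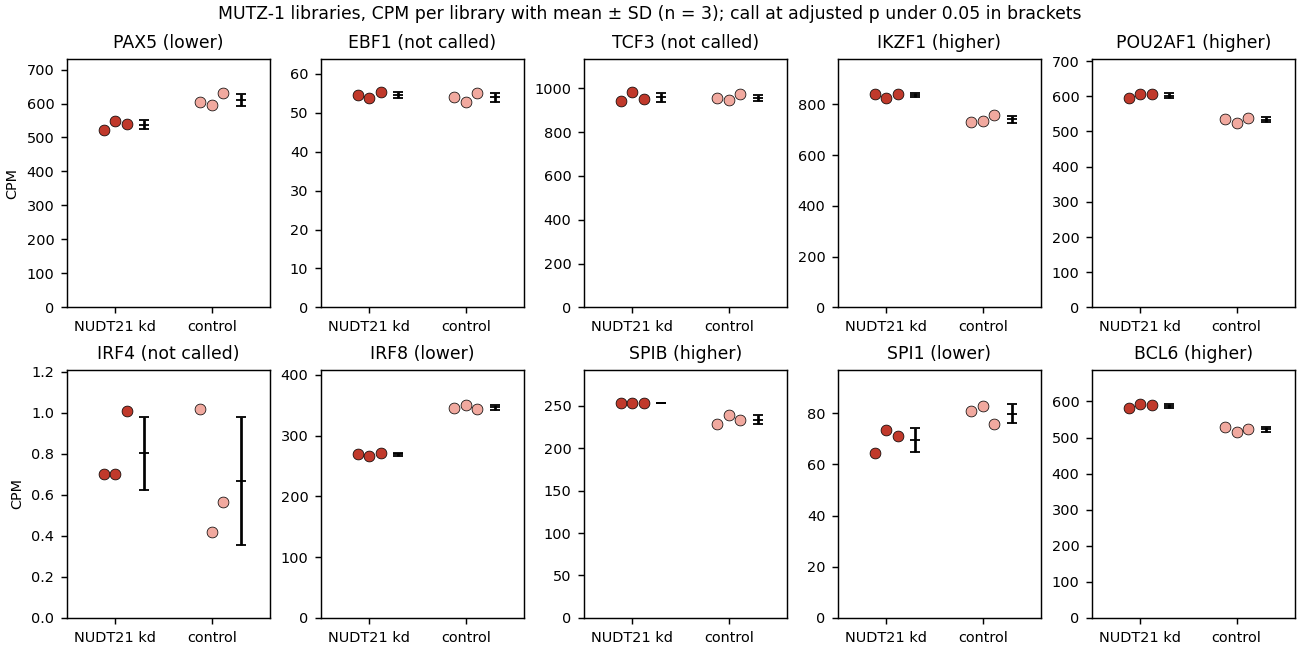
Each panel plots 1 factor in CPM on a linear axis that starts at 0, with 3 MUTZ-1 knockdown libraries to the left and 3 MUTZ-1 control libraries to the right; bars give the mean and SD (n = 3). The shifts are small beside the levels, and IRF8 shows the widest relative gap, averaging 269 CPM in knockdown and 347 CPM in control.

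Most of the marker sums did not overlap between the MUTZ-1 groups, where 53.6% of all single genes did not overlap either. The 9 B-lineage markers summed to 1821 to 1867 CPM in MUTZ-1 knockdown and 1969 to 2015 CPM in MUTZ-1 control, with MS4A1 at 23.2 CPM in knockdown and 187 CPM in control. The gap of MS4A1 was larger than that of the mean sums, so the sum of the other markers was not lower on average. Of the 9, 3 were called higher and 4 lower, against 49.0% of all genes called. The monocyte and granulocyte markers summed to 1.93 to 2.23 CPM in knockdown and 3.05 to 6.21 CPM in control. The 9 erythroid markers summed to 23.4 to 24.8 CPM in knockdown and 17.7 to 19.5 CPM in control, with AHSP at 0 in both groups. The 14 T and NK cell markers summed to 11.5 to 14.7 CPM in knockdown and 5.09 to 6.0 CPM in control, with CD3D, CD2 and CD8A at 0 in both. Most of that sum was TCF7, at 11.9 CPM in knockdown and 4.43 CPM in control, the 1 gene of the 14 that reached 1 CPM. The 5 stroma markers summed to 0.891 to 1.87 CPM in knockdown and 1.64 to 1.92 CPM in control, which overlapped. Their part in the changes of the factors was not tested.

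In SKM-1 the same knockdown was followed by larger changes in the factors that this line expresses. IKZF1, TCF3, SPI1 and SPIB rose, and BCL6, PAX5 and POU2AF1 fell. EBF1, IRF8 and IRF4 were not called. The 7 calls stand beside 84.4% of all genes called in SKM-1, 42.1% higher and 42.3% lower, so a call by itself said little there. The groups did not overlap for 6 of the factors, as for 84.6% of all genes. At least 2-fold calls took in 35.1% of all genes in SKM-1 and 4.75% in MUTZ-1. The factors' median log2 fold change was 0.15, and -0.33 when IRF4, with 1 knockdown count and 0 control counts, was left out, against 0.00 over all genes.

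IKZF1 had 148, 152 and 159.7 CPM in SKM-1 knockdown, against 36.5, 37.3 and 36.6 CPM in SKM-1 control, a log2 fold change of 2.06 ± 0.04 (adjusted p = 4.47e-126). SPI1 had 27.0, 28.2 and 23.4 CPM in knockdown, against 9.44, 9.17 and 9.48 CPM in control (1.48 ± 0.08, adjusted p = 1.10e-43). TCF3 had 259, 262 and 255 CPM in knockdown, against 169, 166 and 169 CPM in control (0.62 ± 0.03, adjusted p = 8.29e-62). For these early factors, shared by lymphoid and myeloid progenitors, every knockdown library lay above every control library. BCL6 had 13.9, 11.4 and 12.7 CPM in knockdown, against 32.2, 32.6 and 31.4 CPM in control, and fell by 1.34 ± 0.06 on the log2 scale (adjusted p = 1.17e-52), the opposite sign to its change in MUTZ-1.

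The remaining calls in SKM-1 rested on few reads. SPIB had 21, 13 and 24 counts in knockdown, against 12, 8 and 13 counts in control (log2 fold change 0.94 ± 0.30, adjusted p = 0.00293). POU2AF1 had 4, 3 and 3 counts in knockdown, against 6, 12 and 12 counts in control (-1.42 ± 0.46, adjusted p = 0.00414). PAX5 had 10, 3 and 0 counts in knockdown, against 12, 11 and 17 counts in control (-1.46 ± 0.48, adjusted p = 0.00482). The PAX5 groups overlapped in CPM, and its log2 fold change was -2.95 without knockdown replicate 1 and -0.89 (adjusted p = 0.0476) without knockdown replicate 3. By counts alone the knockdown to control ratio was 0.357 for PAX5 (95% exact interval 0.175 to 0.682), 0.366 for POU2AF1 (0.160 to 0.770) and 1.93 for SPIB (1.24 to 3.06), covering counting error only. IRF8 had 13 counts in knockdown, against 18 in control, and EBF1 2 against 7. Their log2 fold changes had 95% intervals of -1.50 to 0.85 for IRF8 and -3.64 to 0.62 for EBF1, so smaller changes than these bounds were not detectable at this depth.

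**Figure D3:**
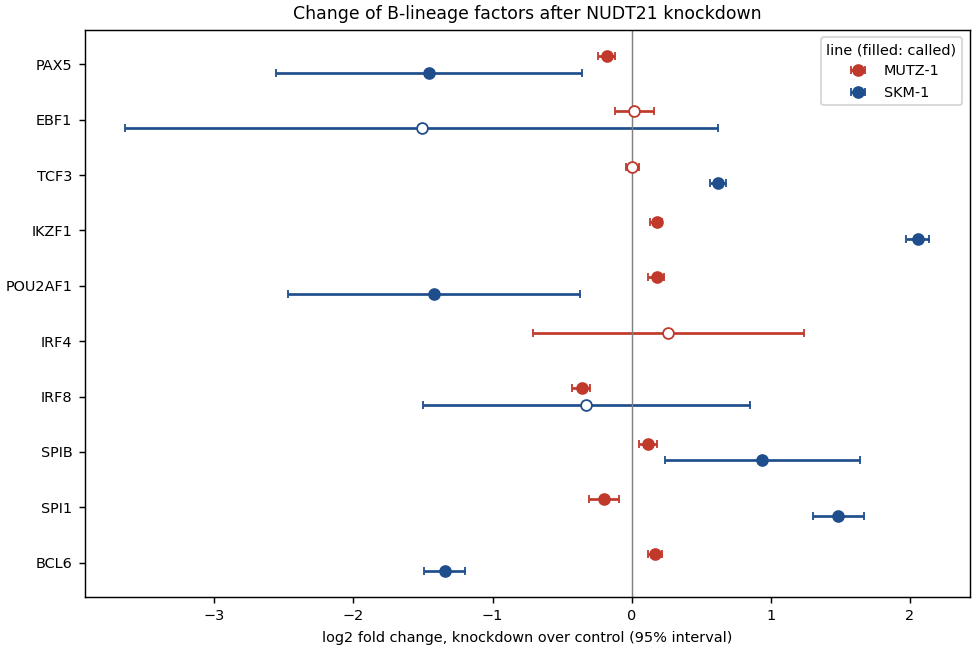
Points give the log2 fold change of each factor, knockdown over control, with its 95% interval, in MUTZ-1 (upper point of a pair) and in SKM-1 (lower point); filled points passed the test at an adjusted p under 0.05. The MUTZ-1 points of the 7 called factors lie between -0.36 and 0.18, the called SKM-1 points between -1.46 and 2.06, and IRF4 has no SKM-1 point because both groups were at or under the floor of 3 counts.

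The SKM-1 groups also differed in other marker genes. The 9 erythroid markers summed to 1324 to 1365 CPM in knockdown and 371 to 375 CPM in control, and all 9 averaged at least 1 CPM in both groups. The 12 monocyte and granulocyte markers summed to 128 to 138 CPM in knockdown and 50 to 54.5 CPM in control, with FCN1 and S100A8 at 0 in both and MPO at 0 in knockdown. The 14 T and NK cell markers summed to 23.4 to 26.7 CPM in knockdown and 45.0 to 49.5 CPM in control, and the 5 stroma markers to 4.47 to 5.89 CPM in knockdown and 62.3 to 67.8 CPM in control. Their part in the changes of IKZF1, SPI1, TCF3 and BCL6 was not tested.

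The knockdown effect itself was compared between the lines, as MUTZ-1 minus SKM-1. Of the 10 factors, 3 were called higher and 4 lower, where 36.4% of all genes were called higher, 35.6% lower and 72.0% in either direction. The effect was lower in MUTZ-1 for IKZF1 (-1.88 ± 0.04, adjusted p = 1.16e-105), SPI1 (-1.68 ± 0.09, adjusted p = 1.12e-41), TCF3 (-0.62 ± 0.03, adjusted p = 1.22e-46) and SPIB (-0.82 ± 0.31, adjusted p = 0.0115). It was higher in MUTZ-1 for BCL6 (1.51 ± 0.07, adjusted p = 5.32e-56), POU2AF1 (1.59 ± 0.45, adjusted p = 0.00149) and PAX5 (1.28 ± 0.48, adjusted p = 0.0161). SPI1, BCL6 and POU2AF1 were called in both lines with opposite signs and with groups that did not overlap. SPI1 was lower in MUTZ-1 knockdown and higher in SKM-1 knockdown, although its MUTZ-1 call was lost without knockdown replicate 1, and BCL6 and POU2AF1 were higher in MUTZ-1 knockdown and lower in SKM-1 knockdown. IKZF1 was called higher in both lines, by 0.18 in MUTZ-1 and 2.06 in SKM-1 on the log2 scale. The calls for PAX5 and SPIB rested on single SKM-1 libraries. For PAX5 the difference was 1.05 (adjusted p = 0.0642) without control replicate 3, 1.10 (adjusted p = 0.0693) without knockdown replicate 2, 0.71 (adjusted p = 0.137) without knockdown replicate 3 and 2.80 without knockdown replicate 1. For SPIB it was -0.62 (adjusted p = 0.0867) without control replicate 2, -0.70 (adjusted p = 0.0578) without knockdown replicate 1 and -0.64 (adjusted p = 0.0948) without knockdown replicate 3.

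Levels were ranked between genes per length, on the deposited FPKM scale (fragments scaled by gene length and library depth). In MUTZ-1 control TCF3 led at 185 ± 2.59 FPKM (SD, n = 3), followed by POU2AF1 at 152 ± 2.15, IRF8 at 122 ± 1.22, PAX5 at 67.3 ± 1.97 and SPIB at 59.0 ± 1.33 FPKM. BCL6 at 50.9 ± 0.799 FPKM and IKZF1 at 49.1 ± 0.969 FPKM overlapped and could not be ordered. SPI1 had 24.8 ± 1.10, EBF1 1.04 ± 0.0216 and IRF4 0.121 ± 0.0567 FPKM. In MUTZ-1 knockdown the order was the same down to IRF8 at 97.7 ± 0.764 FPKM, after which SPIB at 66.2 ± 0.0642 FPKM stood above PAX5 at 61.3 ± 1.58 FPKM. PAX5 then overlapped BCL6 at 59.2 ± 0.662 FPKM. In SKM-1 knockdown TCF3 led at 51.9 ± 0.586 FPKM, then IKZF1 at 10.6 ± 0.425, SPI1 at 8.44 ± 0.784 and BCL6 at 1.28 ± 0.130 FPKM, while SKM-1 control had TCF3 at 35.7 ± 0.466, BCL6 at 3.43 ± 0.0705, SPI1 at 3.19 ± 0.0561 and IKZF1 at 2.68 ± 0.0310 FPKM.

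The level of EBF1 per length depended on the gene length used, and its place in the MUTZ-1 groups did not. The ratio of counts to FPKM gave a length of 49662 bases for EBF1, which is 8.04 times the 6178 bases of its merged exons in GENCODE v29. The ratio was 0.455 for POU2AF1 and 0.529 for IRF8, and lay between 0.817 and 1.66 for the other 7 factors. Per kilobase of merged exons, an alternative chosen after seeing the data, EBF1 had 8.84 CPM in MUTZ-1 knockdown and 8.73 CPM in MUTZ-1 control, still below SPI1 at 33.7 and 38.6 CPM. BCL6, at 99 CPM per kilobase in knockdown and 88.0 in control, then ranked next to TCF3, at 158 in knockdown and 157 in control. Fold changes between groups do not depend on this length.

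The genes around the factors were described from lists of partners and targets. Among 16 other transcription factors of the B lineage tested, 3 were called higher and 9 lower in MUTZ-1 knockdown, against 49.0% of all genes called, with a median log2 fold change of -0.11 against 0.00 over all genes. The 3 higher were GFI1, a repressor of early progenitors (0.65 ± 0.07), MYB, a driver of progenitor growth (0.33 ± 0.03), and the E protein gene TCF4 (0.21 ± 0.02). Among genes averaging 1 CPM or more over both groups, the largest decreases were those of RUNX1 (-0.34 ± 0.05), which acts upstream of EBF1, and of the Ikaros relative IKZF3 (-0.28 ± 0.03). In SKM-1 knockdown, where 84.4% of all genes were called, 7 of the 16 were called higher and 8 lower, led by IKZF3 (2.61 ± 0.16) and MYB (2.31 ± 0.03) on one side and SOX4 (-5.08 ± 0.07) and KLF2 (-4.33 ± 0.29) on the other. MYB was thus called higher in both lines, and FOXO1, LEF1, XBP1 and KLF2 were called lower in both. KLF2 stood at under 1 CPM in MUTZ-1 and passed the low-count filter through its SKM-1 control libraries alone. GFI1, TCF4, RUNX1, IKZF3, TCF12 and MEF2C were called in opposite directions.

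Of 15 partners, corepressors and inhibitors of the factors, 6 were called higher and 4 lower in MUTZ-1 knockdown, against 49.0% of all genes called, with a median of 0.10. IKZF2 (Helios, 0.74 ± 0.06), which dimerizes with IKZF1, and POU2F2 (OCT2, 0.37 ± 0.03), the octamer factor that POU2AF1 joins, rose most. The 4 called lower were the Groucho corepressor genes TLE1 (-2.04 ± 0.36, at 0.306 against 1.27 CPM) and TLE4 (-0.22 ± 0.06), the remodeler gene CHD4 (-0.11 ± 0.02) and CRBN (-0.15 ± 0.06), part of the ligase that degrades Ikaros proteins in the presence of some drugs. The CRBN call was lost with library totals alone, RLE size factors, DESeq2 and both limma fits, and without any 1 of the 6 MUTZ-1 libraries, or SKM-1 knockdown replicate 1 or 2, down to -0.07 (adjusted p = 0.447) without MUTZ-1 control replicate 3. TLE4 was lost without that control replicate (-0.16, adjusted p = 0.0572). In SKM-1 knockdown 6 were called higher and 9 lower, against 84.4% of all genes called, with TLE1 (-4.70 ± 0.13) and ID3 (-1.74 ± 0.11) lowest and, among genes averaging 1 CPM or more, ID1 (1.58 ± 0.09) and POU2F2 (0.66 ± 0.29) highest. BATF, at 0.287 CPM in knockdown and 0.0740 CPM in control, rose by 1.84 ± 0.78. ID1 and ID3 encode inhibitors that bind E proteins such as those of TCF3. POU2F2 had few counts in SKM-1, its groups overlapped, and its call was lost without SKM-1 control replicate 2 (0.35, adjusted p = 0.269), knockdown replicate 1 (0.50, adjusted p = 0.137) or knockdown replicate 2 (0.61, adjusted p = 0.0644).

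Of 21 B-cell genes known to be activated by TCF3, EBF1 or PAX5, 6 were called higher and 9 lower in MUTZ-1 knockdown, against 49.0% of all genes called, with a median of -0.05. MS4A1 (CD20) had 23.4, 22.3 and 23.9 CPM in knockdown, against 187, 191 and 185 CPM in control, a log2 fold change of -3.01 ± 0.05 (adjusted p = 2.91e-124). That change was far larger than the change of any factor. FCER2 (CD23), at 0.742 CPM in knockdown and 5.55 CPM in control, fell by 2.88 ± 0.28. Among genes averaging 1 CPM or more, CD72 (0.80 ± 0.06) and the recombinase gene RAG2 (0.73 ± 0.06) rose most. DNTT, at 0.905 CPM in knockdown and 0.247 CPM in control, rose by 1.83 ± 0.51. It passed the low-count filter through its MUTZ-1 knockdown libraries alone, so its rise was partly a condition of being tested. Between the control lines all 21 were called higher in MUTZ-1, against 41.4% of all genes, with a median of 7.29, or 6.63 with genes at 0 in SKM-1 at their bound. Some of these genes, among them MS4A1, BLNK, VPREB1, IGLL1 and FCER2, passed the low-count filter through their MUTZ-1 libraries alone. For such genes a higher level in MUTZ-1 was a condition of being tested. In SKM-1 knockdown 7 were called higher and 5 lower, against 84.4% of all genes called, among them CR2 (2.34 ± 0.19) and CD24 (1.86 ± 0.05) higher, and VPREB3 (-4.20 ± 0.31) lower.

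Of 11 myeloid genes downstream of SPI1 and IRF8 tested, 0 were called higher and 7 lower in MUTZ-1 knockdown, with a median of -0.91. In SKM-1 knockdown 7 were called higher and 1 lower, with a median of 0.88, or 0.75 with floors applied. Of all genes, 49.0% were called in MUTZ-1 and 84.4% in SKM-1. The part of SPI1 and IRF8 in these values was not tested. The protease gene CTSS had 34.4 CPM in MUTZ-1 knockdown and 82.8 CPM in MUTZ-1 control (-1.27 ± 0.06, adjusted p = 1.28e-52). It was also the 1 gene called lower in SKM-1 (-0.29 ± 0.13), a call lost without SKM-1 control replicate 1 (-0.16, adjusted p = 0.295), knockdown replicate 2 (-0.27, adjusted p = 0.0798) or knockdown replicate 3 (-0.25, adjusted p = 0.0996). Most other myeloid genes were near the limit of detection in MUTZ-1, but CYBB, CYBA and NCF4 averaged 113, 165 and 32.1 CPM in MUTZ-1 control. TLR4, among those called lower in MUTZ-1, passed the low-count filter through its MUTZ-1 control libraries alone. Its fall was thus partly a condition of being tested. In SKM-1 TYROBP (2.86 ± 0.35) and CYBA (1.67 ± 0.04) rose most, although TYROBP passed the filter through its SKM-1 knockdown libraries alone. The difference of the knockdown effects was called lower in MUTZ-1 for 9 of the 11 genes and higher for 0, where 35.6% of all genes were called lower and 36.4% higher.

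Of 13 genes known to be repressed by BCL6, 2 were called higher and 5 lower in MUTZ-1 knockdown, a share near the 49.0% of all genes called, with a median of -0.20. The 2 higher were CD80 (0.72 ± 0.09) and BCL2 (0.19 ± 0.07). Those called lower included NFKB1 (-0.42 ± 0.04), CDKN1B (-0.42 ± 0.17) and CHEK1 (-0.25 ± 0.04). In SKM-1 knockdown 6 were called higher and 6 lower, where 84.4% of all genes were called. The part of BCL6 in these values was not tested. CD80 (1.94 ± 0.14) and CD69 (1.22 ± 0.07) were the highest, and CCND2 (-3.52 ± 0.04) was the lowest. In MUTZ-1 the CDKN1B call was lost with library totals alone, with DESeq2, without control replicate 3 (-0.26, adjusted p = 0.293) and without any 1 knockdown replicate, and that of BCL2 without control replicate 1 (0.19, adjusted p = 0.0576).

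Of 10 plasma cell genes, the set that IRF4 and PRDM1 favour, 2 were called higher and 5 lower in MUTZ-1 knockdown, against 49.0% of all genes called, with a median of -0.21. CD38 (0.18 ± 0.03) and MZB1 (0.18 ± 0.03) rose. TNFRSF17 (-0.48 ± 0.14), CD27 (-0.27 ± 0.04), XBP1 (-0.25 ± 0.03), FKBP11 (-0.17 ± 0.05) and JCHAIN (-0.08 ± 0.02) fell, although TNFRSF17 was no longer called without MUTZ-1 control replicate 1 (-0.30, adjusted p = 0.122). In SKM-1 knockdown PRDM1 was the 1 gene called higher (1.19 ± 0.32), and 6 were called lower, against 84.4% of all genes called. Those lower included JCHAIN (-2.60 ± 0.16), FKBP11 (-1.97 ± 0.08) and, at under 1 CPM in both groups, CD38 (-2.46 ± 0.48).

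**Figure D4:**
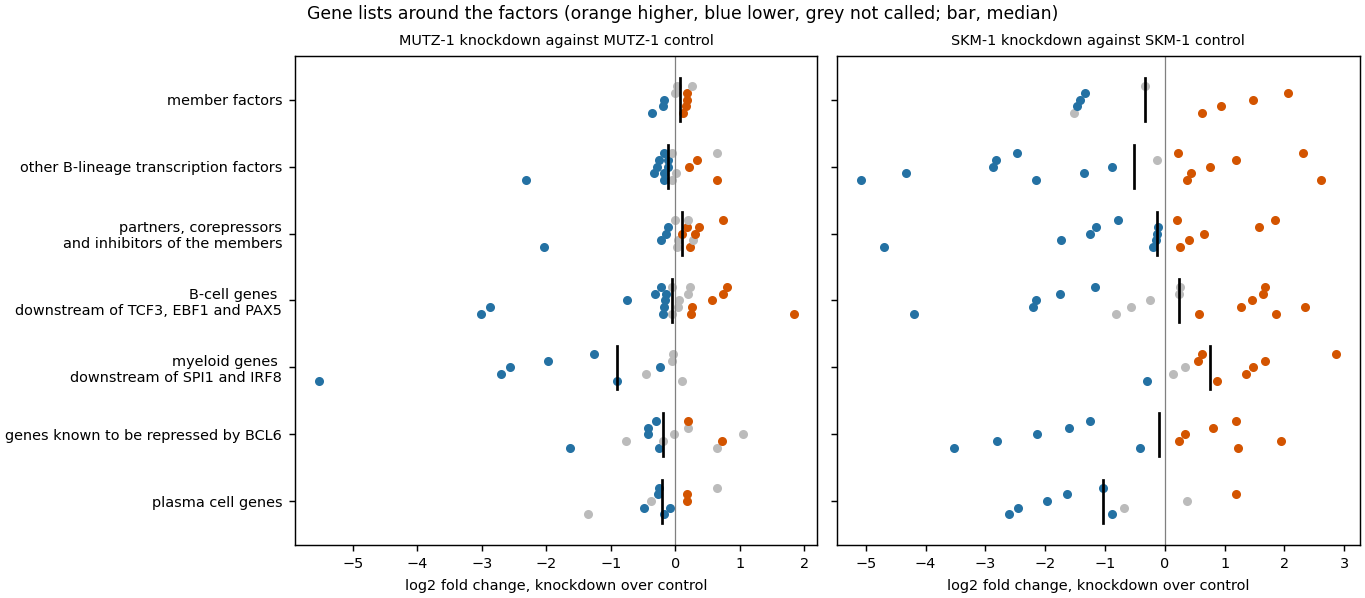
Each point is a gene of 1 list, placed at its log2 fold change of knockdown over control, in MUTZ-1 to the left and SKM-1 to the right; orange was called higher, blue lower, grey not called, and the bar is the list's median, with genes at or under 3 counts in both groups left out and genes at 0 in 1 group at their bound. The factors lie close to 0 in MUTZ-1, and the myeloid list has its median at -0.91 in MUTZ-1 and 0.75 in SKM-1.

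The factors lie on 8 chromosomes, and their changes were set beside those of their neighbours. Over genes averaging 5 CPM or more, the chromosome medians lay between -0.04 and 0.03 in MUTZ-1 knockdown. In SKM-1 knockdown the medians ran from -1.06 on chromosome 13 to 0.54 on chromosome 21, neither of which carries a factor of this set. In SKM-1, IKZF1 at chr7:50304068-50405101 changed by 2.06, where the median of chromosome 7 was 0.40 and that of its 20 nearest such genes 0.10. SPI1 at chr11:47354860-47378576 changed by 1.48, against 0.26 for both chromosome 11 and its neighbours. TCF3 at chr19:1609290-1652605 changed by 0.62, against 0.36 for chromosome 19 and 0.27 for its neighbours. BCL6 at chr3:187721377-187745727 changed by -1.34, against -0.04 for chromosome 3 and -0.30 for its neighbours. In MUTZ-1 the neighbours of IRF8 at chr16:85898803-85922609 had a median of -0.12 beside its -0.36, and those of PAX5 at chr9:36833275-37034185 had 0.06 beside its -0.18. The neighbours of BCL6 in MUTZ-1 had a median of 0.20, as large as its own 0.17. The other factors lie at chr5:158695916-159099761 (EBF1), chr11:111352252-111455630 (POU2AF1), chr19:50418938-50431313 (SPIB) and chr6:391739-411447 (IRF4). Positions are those of GENCODE v29 on GRCh38. The share of chromosome content in the SKM-1 changes was not tested.

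**Figure D5:**
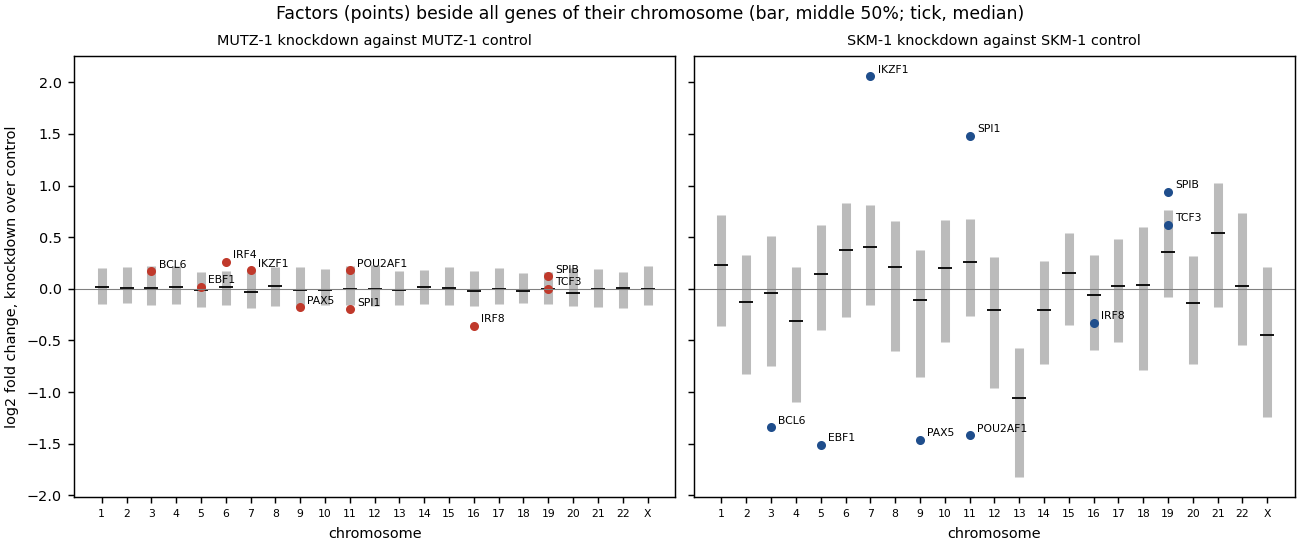
Points give the log2 fold change of each factor, knockdown over control, at its chromosome, in MUTZ-1 to the left and SKM-1 to the right; grey bars span the middle 50% of the chromosome's genes averaging 5 CPM or more, and ticks mark their median. The chromosome medians are level in MUTZ-1 and spread from -1.06 to 0.54 in SKM-1; IRF4 is not drawn for SKM-1.

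The gene closest to each factor in its profile over the 12 libraries was found by the root mean square difference of log2(CPM + 1), each centred on its mean, among 10892 other genes (10893 for IRF4) averaging 5 CPM or more. CD79B was the closest to both PAX5 (0.174) and POU2AF1 (0.148). IRF8 was closest to LSP1 (0.138), which had 239.7 CPM in MUTZ-1 knockdown and 291 CPM in MUTZ-1 control, against traces in SKM-1. The closest to IKZF1 was LAPTM5 (0.157), to SPI1 IL2RG (0.101), to EBF1 ABI3 (0.103), to BCL6 SPATA13 (0.182) and to TCF3 MDM2 (0.0575). For IRF4, nearly flat at its low level, it was LMF2 (0.107). The 12 libraries form 4 groups, so each likeness rests mainly on the 4 group levels.

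Since NUDT21 binds UGUA in RNA near poly(A) sites, the annotated 3' ends of the factors were described as well. The longest annotated 3' untranslated region of PAX5 had 7285 bases, longer than in 97.0% of 13259 tested genes, whose median was 1354 bases. It held 24 TGTA, or 3.29 per kilobase, against a median of 4.92 over these genes. IKZF1 had 4474 bases with 6.26 per kilobase and EBF1 3195 bases with 10.0 per kilobase. The shortest were those of SPI1, 418 bases at 14.4 per kilobase, and BCL6, 1081 bases at 15.7 per kilobase. IRF8 had 1327 bases at 2.26 per kilobase, POU2AF1 2009 bases at 4.48, SPIB 2977 at 4.03, TCF3 2417 at 3.31 and IRF4 3849 at 7.01. By direction in MUTZ-1 alone, IRF8 and PAX5, which fell, were below the median density, and SPI1, which also fell, was above it. BCL6 and IKZF1, which rose in MUTZ-1, were above it, and POU2AF1 and SPIB, which also rose there, below. In SKM-1 SPI1 rose, BCL6 and POU2AF1 fell, and IRF8 was not called. Counts per gene do not show which 3' end was used.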

How the data were processed

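Poly(A)-selected RNA was sequenced from 12 libraries with a stranded kit, per the labels' protocols. Per the submitters' processing notes, HISAT2, fastp and HTSeq were used with genome build GRCh38. Versions, annotation and the counting strand are not given in the sources. The authors deposited a table of raw counts per gene and a table of FPKM. The members and gene lists were chosen with earlier results of these data known.

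Counts of 17518 genes were filtered (edgeR's filterByExpr, 13625 genes kept), scaled by TMM (factors 0.959 to 1.06) and fitted for 4 groups together with edgeR 4.0.16's robust quasi-likelihood test in R 4.3.3, with 8 residual degrees of freedom. P-values were adjusted by Benjamini-Hochberg over all genes tested and called under 0.05. Standard errors are the log2 fold change divided by the root of F. With 15843012 to 18426619 counts per library, the biological coefficient of variation was 2.44%. In every pair of replicates the counts varied beyond sampling noise. Methods were tested on simulated data.

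Named genes were all 10 factors, NUDT21, the 2 highest and 2 lowest called genes of each list averaging 1 CPM or more over both groups, the gene nearest to each factor, and every count of 5 or fewer. Alternatives were library totals, RLE size factors, DESeq2 1.42.0, no filter, a replicate block, limma 3.58.1 on log2(FPKM + 1) and log2(FPKM + 0.1), each library left out in turn, and fits on the compared groups alone. Exons of SPIB overlap those of AC020909.1 on the same strand over 839 bases, and BCL6, IKZF1, PAX5 and POU2AF1 overlap antisense genes. None of these neighbours is a row of the count table. DNTT, BATF, TCF7 and, in SKM-1, CD38 were named after their values were seen. Some genes that this rule names are not reported here.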

Additional observations from a re-analysis of the deposited data

Results flagged for a closer look

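The effect of the knockdown differed between the lines, by the test of the difference itself in edgeR, for 7 of the 10 factors, where 72.0% of all genes did. The difference, MUTZ-1 minus SKM-1 in log2, was 1.28 for PAX5, 1.59 for POU2AF1 and 1.51 for BCL6, and -0.62 for TCF3, -1.88 for IKZF1, -0.82 for SPIB and -1.68 for SPI1. For IKZF1, SPI1, TCF3 and BCL6 it rests on at least 165 counts in each SKM-1 library. For PAX5, POU2AF1 and SPIB it rests on 0 to 24 counts in each SKM-1 library.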

How the results depend on the processing

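Of the 10 factors, 7 were called in MUTZ-1, against 2 (both higher) with limma on log2(FPKM + 0.1); the cause was not tested. IRF8, PAX5, POU2AF1, SPI1 and SPIB were the calls lost there, and SPI1 was also lost with log2(FPKM + 1). Across the remaining alternatives the counts stayed within 1.5 times: leaving out 1 library gave 6 to 7 factors in MUTZ-1, 7 in SKM-1, 5 to 7 for the difference and 10 between the control lines, and 6057 to 6769, 11329 to 11605, 9569 to 9731 and 12184 to 12420 genes of all tested in the same order. The PAX5 difference between the lines turned to -0.05 (adjusted p = 0.418) with limma on log2(FPKM + 1), and the cause was not tested. PAX5 averaged 0.0307 FPKM in SKM-1 knockdown and 0.0907 FPKM in SKM-1 control, far below the 1 FPKM added in that fit. There SPIB stood at -0.00 (adjusted p = 0.992), IRF8 gained a call for the difference (-0.27, adjusted p = 0.00356), and PAX5 lost its call in SKM-1 (-0.08, adjusted p = 0.0701). TCF3 was called in MUTZ-1 (0.05, adjusted p = 0.0251) with library totals alone. Of the other named results, 1317 of 1360 alternative values kept their call and 43 lost it. Replicate numbers did not pair the libraries (same-number r from -0.0709 to 0.0229 in 6 pairs), and with a replicate block 7, 7, 7 and 10 factors and 6533, 11446, 9710 and 12243 genes were called. Depth limits PAX5, EBF1, POU2AF1, IRF8 and IRF4 in SKM-1 to 17 or fewer counts per library.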
